A study of Mus musculus with 10 samples.

Results

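The 35 genes described here encode the folding machinery of the endoplasmic reticulum (ER) and the integrated stress response that is coupled to it. They were listed by name for these roles, with no threshold on a measured value, and are 35 of the 52550 genes in the deposited table. All 35 passed the filter on low counts that left 16602 genes for testing. By role they form 5 groups: 16 ER chaperones and folding enzymes, 3 genes of ER-associated degradation (ERAD), 4 genes for the stress sensors and Xbp1, 7 stress response transcription factors and effectors, and 5 enzymes of amino acid and one-carbon synthesis. RNA was sequenced from mouse embryonic fibroblasts (MEFs), primary cells of embryonic connective tissue, in 5 female and 5 male libraries. Both sexes shared the strain (C57BL/6), the embryonic stage (E14), the passage (P3) and the medium (DMEM with fetal bovine serum and penicillin-streptomycin), and no group was treated with a stress agent. Libraries were made from ribosomal RNA-depleted total RNA with a strand-preserving kit and read on a NextSeq 500. Whether the 5 libraries of a sex derive from different embryos or dishes is not stated in the labels, so each p-value reflects only how far these libraries scatter, part of which may be technical.

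Proteins that a cell secretes or places in its membranes fold in the ER, where Hsp70- and Hsp90-type chaperones, lectins and disulfide isomerases act on them and ERAD returns misfolded ones to the cytosol. When unfolded protein accumulates, the sensors IRE1, PERK and ATF6 activate the unfolded protein response, in which ATF6 and spliced XBP1 raise transcription of chaperone and ERAD genes. PERK and other kinases phosphorylate the translation factor eIF2, which lowers general protein synthesis but favours translation of ATF4, an activator of genes for amino acid supply and of the factors DDIT3, ATF3 and TRIB3. Fibroblasts are secretory cells whose main cargo is collagen, itself a client of the chaperone HSP47 (Serpinh1) and of prolyl hydroxylase, of which P4hb encodes a subunit.

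Both branches are known to act through short promoter elements, so the promoters of the genes were searched for these, and 13 members held a match to at least 1. RefSeq promoter windows (GRCm38.p6, 250 bases before to 50 after the start) were found for 32 of the 35 genes. Both strands were searched for the ER stress element ERSE (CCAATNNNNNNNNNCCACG), its variant ERSE-II (ATTGGNCCACG), the unfolded protein response element UPRE (TGACGTGG) and the C/EBP-ATF response element CARE (TGATGNAA), none of which overlapped another. ERSE was found in 7 members, all of them among the 14 ER chaperone and folding genes with a window. Of all 32851 windows in the table, 0.119% held it. ERSE-II was found in Herpud1 and Dnajb11, against 0.0365% of all windows, and CARE in Asns, Atf3, Chac1, Herpud1 and Trib3, against 3.97%. UPRE was in none of the 32 members and in 0.676% of all windows. A match is a description of the letters in the window and not evidence of binding. The promoter of Hspa5, which encodes the main ER chaperone BiP, is given over the 150 bases before the RefSeq start, on the + strand, with both boxes of the ERSE in capitals.
Hspa5 chr2:34771940-34772089: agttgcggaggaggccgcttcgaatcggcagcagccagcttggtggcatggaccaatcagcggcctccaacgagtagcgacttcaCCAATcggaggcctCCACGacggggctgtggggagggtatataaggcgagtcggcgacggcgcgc
A second CCAAT at base -98 of the same stretch is followed at the ERSE distance by CCAAC in place of CCACG. The deposited annotation starts Hspa5 at base 34771970 of chromosome 2, upstream of the RefSeq start, and positions here count from the RefSeq start.

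The ERSE matches of the other chaperone genes are shown with 20 bases on either side, each written 5′ to 3′ on the gene's strand, with the match in capitals. A match that begins with CGTGG lies on the opposite strand.
Hsp90b1 upstream chr10:86705618-86705676: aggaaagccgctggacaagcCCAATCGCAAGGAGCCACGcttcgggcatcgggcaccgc
Hsp90b1 downstream chr10:86705513-86705571: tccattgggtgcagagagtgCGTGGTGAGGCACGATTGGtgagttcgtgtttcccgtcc
Calr chr8:84847055-84847113: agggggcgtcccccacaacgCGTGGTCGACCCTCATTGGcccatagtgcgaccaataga
Canx chr11:50325780-50325838: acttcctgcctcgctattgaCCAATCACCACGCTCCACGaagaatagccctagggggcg
Pdia6 chr12:17266471-17266529: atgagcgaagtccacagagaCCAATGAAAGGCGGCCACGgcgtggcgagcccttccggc
Dnajc3 chr14:118937807-118937865: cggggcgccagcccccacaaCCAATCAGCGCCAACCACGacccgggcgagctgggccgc
Creld2 chr15:88819500-88819558: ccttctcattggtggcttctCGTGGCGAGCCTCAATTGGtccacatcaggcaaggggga
The gene for the Hsp90-type chaperone, Hsp90b1, held 2 matches, and the other 6 genes 1 each. The first base of these matches lay between base -212 and base -65 from the RefSeq start, the nearest being that of Hspa5. The ERSE-II of Herpud1 and the CARE matches that lie before a start are shown in the same way, cut at the start where it is nearer than 20 bases, and those of Herpud1 come from the same promoter.
Herpud1 ERSE-II chr8:94386357-94386407: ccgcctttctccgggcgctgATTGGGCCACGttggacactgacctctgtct
Herpud1 CARE chr8:94386297-94386344: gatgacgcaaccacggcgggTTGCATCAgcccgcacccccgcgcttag
Asns CARE chr6:7693210-7693252: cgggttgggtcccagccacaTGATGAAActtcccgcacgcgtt
Chac1 CARE chr2:119351029-119351076: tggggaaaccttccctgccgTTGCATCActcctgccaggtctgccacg
Atf3 CARE chr1:191183416-191183463: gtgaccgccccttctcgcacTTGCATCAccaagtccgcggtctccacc
The ERSE-II of Dnajb11 began 8 bases after its start and the CARE of Trib3 15 bases after.

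**Figure D1:**
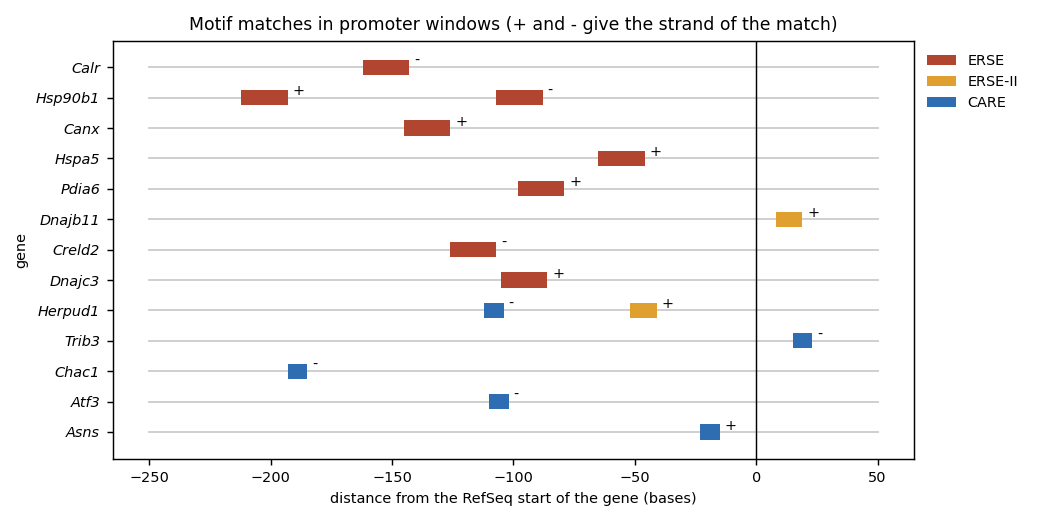
Each row is the promoter window of 1 member that held a match, with distance from the RefSeq start in bases on the x axis. Bars mark ERSE, ERSE-II and CARE and the sign gives the strand. ERSE bars stand only in rows of chaperone genes, and CARE bars in Herpud1, Trib3, Chac1, Atf3 and Asns.

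Unique gene reads came to 30662616 to 45859721 per library. The sex labels fitted the sex-linked genes: Xist was at 17.3 to 25.7 CPM (counts scaled to library size, with TMM factors) in females and 0 to 0.0579 CPM in males, and Ddx3y at 0 to 0.463 CPM in females and 54.7 to 68.2 CPM in males. The summed level of 8 fibroblast markers was 22438 to 29742 CPM in females and 23051 to 28839 CPM in males. Markers of other cell types were far lower, with 4 erythroid and liver genes summing to 3.18 to 7.63 CPM in females and 2.45 to 6.09 CPM in males and Hba-a1 at 0 in all 10 libraries. In such bulk samples, fewer cells of a type and less RNA per cell cannot be told apart.

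By unique exon reads, the chaperones and folding enzymes held the 8 highest levels of the 35 genes. Levels of different genes are compared here in RPKM, unique exon reads scaled to exon length and TMM library size, given as mean ± SD over 5 libraries a sex. Serpinh1, the collagen chaperone HSP47, had the highest level of the 35, at 735 ± 33.7 RPKM in females and 699 ± 38.5 RPKM in males. The lectin chaperone calreticulin, Calr, followed at 543 ± 46.8 RPKM in females and 549.5 ± 25.7 RPKM in males. P4hb, the disulfide isomerase that also serves prolyl hydroxylase, was at 377 ± 22.5 RPKM in females and 382 ± 12.97 RPKM in males. The order went on with the disulfide isomerase Pdia3 (321 RPKM over the 10 libraries), Hsp90b1 (289.7 RPKM), the lectin calnexin, Canx (255 RPKM), and Hspa5 (225 RPKM). The ranges of Serpinh1, Calr, P4hb and Pdia3 across libraries did not overlap each other, whereas Pdia3, Hsp90b1, Canx and Hspa5 overlapped with their neighbours. Hspa5 (ENSMUSG00000026864, chr2:34771970-34777547, + strand in mm10) averaged 226 ± 41.4 RPKM in females and 224 ± 25.7 RPKM in males. The disulfide isomerases Pdia4 and Pdia6 were at 139 and 95.04 RPKM. The nucleotide exchange factor Hyou1, the secreted survival factor Manf, the J-domain cochaperones Dnajb11 and Dnajc3, and Creld2 lay between 27.8 and 51.4 RPKM. Sdf2l1, a partner of Dnajb11, and the J-domain cochaperone Dnajb9 were the lowest of the chaperone group, at 15.4 and 7.59 RPKM.

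The ERAD genes were well below the leading chaperones. Sel1l, the adaptor of the ERAD ubiquitin ligase, was at 24.4 RPKM, the mannosidase-like Edem1 at 22.4 RPKM and Herpud1, an ERAD scaffold, at 17.2 RPKM. In the group of sensors and Xbp1, Xbp1 RNA was at 22.2 RPKM, Atf6 at 13.8 RPKM, Eif2ak3 (PERK) at 7.36 RPKM and Ern1 (IRE1) at 4.24 RPKM. The table counts reads by gene, so spliced and unspliced Xbp1 were not separated.

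Of the transcription factors and effectors, Atf4 had by far the highest RNA level, at 116 ± 8.37 RPKM in females and 107 ± 11.3 RPKM in males. The 6 others were at 23.5 RPKM for Sesn2, an inhibitor of mTORC1 signalling, 23.3 RPKM for Ddit3 (CHOP), 16.03 RPKM for Ppp1r15a (GADD34, which directs a phosphatase to eIF2), 9.30 RPKM for the pseudokinase Trib3, 8.52 RPKM for the glutathione-degrading enzyme Chac1 and 2.45 RPKM for Atf3, the lowest of the 35. The biosynthetic enzymes lay close together: the serine synthesis enzymes Phgdh and Psat1 at 55.8 and 51.02 RPKM, the mitochondrial folate enzymes Shmt2 and Mthfd2 at 46.2 and 27.7 RPKM, and asparagine synthetase, Asns, at 43.9 RPKM. Phgdh is uncertain, because only 42.5% of its reads were unique. With total exon reads its level was 126 RPKM, the 8th highest of the 35 and above Pdia4 at 119.7 RPKM, and Hsp90b1 then stood above Pdia3. The unique share was also below 95% for Hsp90b1 (85.03%), Ppp1r15a (88.1%), Dnajb9 (90.2%), Herpud1 (91.4%), Sesn2 (92.5%) and Manf (93.8%). Ddit3 overlaps Mars and Gm4189 on the other strand and another annotated entry named Ddit3 on its own strand. Manf overlaps Rbm15b on its own strand, and some other members also overlap annotated genes. The sources used here do not say whether counting used strand or how it treated such overlaps.

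**Figure D2:**
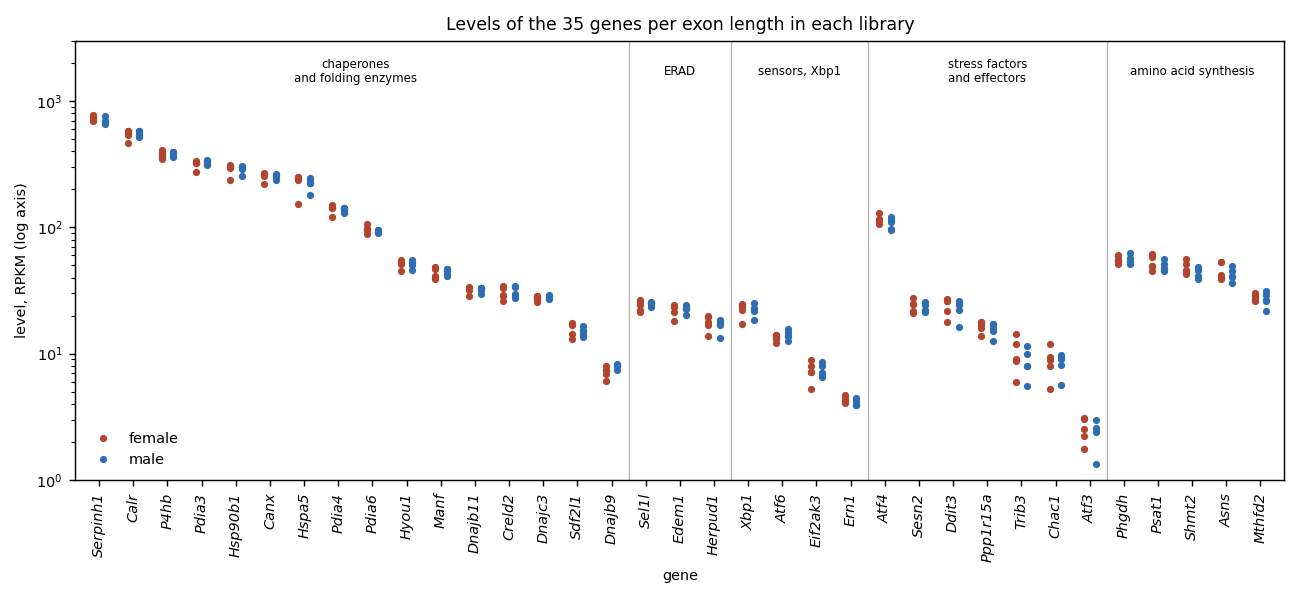
RPKM of each member on a log axis, grouped by role and ordered by mean, with 1 point per library, female left of male. Serpinh1, Calr and P4hb lead the chaperones, Atf4 stands above the other stress factors, and female and male points overlap for every gene.

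Reads in introns separated Ern1, Eif2ak3 and Atf6, but not Xbp1, from the folding enzymes. Introns held a median of 1.97% of the unique gene reads of the chaperone group. The median was 24.9% for the group of sensors and Xbp1, against 23.1% over all tested genes. Ern1 was at 33.4%, Eif2ak3 at 28.5% and Atf6 at 21.4%, while Xbp1, a short gene, was at 5.02%. The lowest shares were 0.19% for Ppp1r15a, 0.248% for Calr and 0.315% for Hspa5. Ddit3 had 35.2%, in a span shared with Mars. These are descriptions, and introns differ in length between genes.

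Female and male fibroblasts showed no called difference in any of the 35 genes. In edgeR's quasi-likelihood test on the whole table, 15 of 16602 genes passed an adjusted p of 0.05 (0.0904%), and 0 of the 35 members. No member had an unadjusted p under 0.05, against 921 of 16602 genes (edgeR). DESeq2 called 70 genes and limma-voom 13, and both called 0 members. With the replicate number as a block, 43 genes were called and again 0 members. The sexes did not overlap in 162 genes (0.976%) and in 0 members. Fold changes are log2, female minus male, ± standard error.

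Trib3, the pseudokinase induced by ATF4, had the widest difference, 0.23 ± 0.24 (adjusted p = 0.999, edgeR). It was at 20.6, 25.1, 14.6, 16.9 and 10.3 CPM in females 1 to 5, against 18.7, 13.7, 13.8, 18.5 and 10.03 CPM in males 1 to 5. Female 2 and female 1 were the highest libraries, both libraries numbered 5 the lowest, and the sexes overlapped. Dnajb9, a cochaperone that binds IRE1, had the smallest p, with a fold change of -0.15 ± 0.0811 (unadjusted p = 0.0828, adjusted p = 0.961, edgeR). It was at 15.04, 13.97, 14.6, 14.5 and 11.5 CPM in females 1 to 5, against 14.9, 15.6, 15.98, 15.4 and 15.5 CPM in males 1 to 5. Female 5 was the lowest library, 4 of the 5 males were above every female, and male 1 was below female 1. The 16 chaperone and folding genes had a median fold change of -0.01, and 6 were positive. The ERAD genes had a median of -0.02 with 1 of 3 positive, and the group of sensors and Xbp1 0.01 with 2 of 4 positive. All 7 stress factors and effectors and all 5 biosynthetic enzymes had positive values, none of which passed the test, with medians of 0.07 and 0.10. Over all tested genes 52.1% were positive and the median was 0.0048. With unique intron reads 8 of the 11 fitted members of these last groups were positive, and without male 5 8 of 12. The fold changes of Asns (0.10 ± 0.11), Psat1 (0.11 ± 0.0851), Shmt2 (0.12 ± 0.0883) and Atf4 (0.10 ± 0.0782) were near the size of their standard errors. Hspa5 was at 0.01 ± 0.14.

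**Figure D3:**
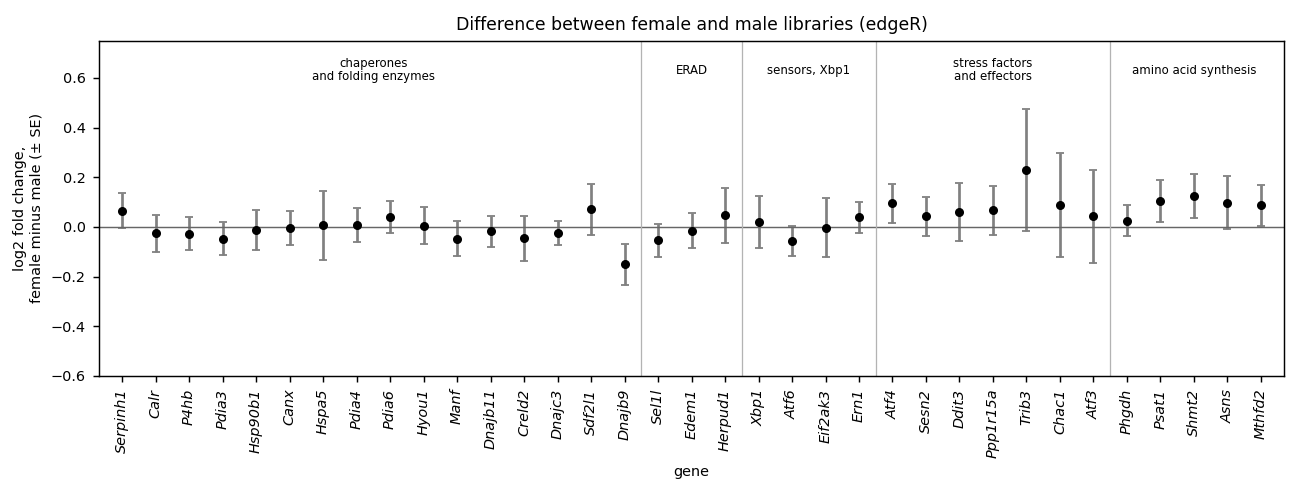
Log2 fold change of each member, female minus male, with its standard error, grouped by role. The stress factors and biosynthetic enzymes lie above 0 and most chaperones near it, and no member passed the test.

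Members differed in how much they varied between libraries of a sex. The within-sex SD of log2 CPM was 0.43 for Trib3 and 0.39 for Chac1, and 98.7% and 98.2% of the 8877 genes with a mean of at least 10 CPM varied less. Hspa5, at 0.26, varied more than 92.9% of them, whereas Dnajc3, at 0.05, varied more than only 3.37%. Atf3 had an SD of 0.36 at a mean below 10 CPM. The median was 0.11 over the chaperone group and 0.20 over the 6 stress factors other than Atf3, against 0.12 over those 8877 genes.

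Part of this variation went with the replicate number in the sample titles, which pairs 1 female with 1 male library. The test of the number was added after the data were seen, as a term of 4 degrees of freedom beside sex. It called 407 of 16602 genes (2.45%) and 7 of the 35 members: Hspa5 (adjusted p = 0.0156), Xbp1 (0.0221), Ddit3 (0.03), Chac1 (0.0346), Asns (0.0365), Eif2ak3 (0.0375) and Herpud1 (0.044), by edgeR. By limma-voom 245 genes (1.48%) and 2 members passed, Hspa5 (adjusted p = 0.033) and Xbp1 (0.0412). On simulated data the edgeR term made more false calls than its threshold allows, so single calls are uncertain. Without both libraries numbered 5, edgeR called 54 genes (0.326% of those tested in that fit) and 0 members, and without female 5 alone 91 genes (0.542%) and 0 members. The count of members was 2 without female 2, female 3, male 3, male 4 or male 5, and Hspa5 was 1 of the 2 each time, beside 0.995% to 1.98% of all genes tested in those fits.

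Hspa5 was at 740.5, 786, 738, 793 and 474 CPM in females 1 to 5, against 661, 716, 750.05, 822 and 566 CPM in males 1 to 5. Female 5 and male 5 were the lowest libraries of their sex, female 5 the lowest of all, and the other 8 lay within a narrower range. Hsp90b1 was at 893, 937, 885, 911 and 702 CPM in females 1 to 5, against 852, 911, 910.2, 919.98 and 771 CPM in males 1 to 5. It had the same 2 low libraries, and its number term had an adjusted p of 0.0909 (edgeR). Herpud1 was at 33.1, 38.3, 30.6, 37.3 and 25.9 CPM in females 1 to 5, against 29.8, 35.1, 33.8, 35.1 and 26.1 CPM in males 1 to 5. Its lowest library of each sex was again the one numbered 5, and the sexes overlapped.

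Xbp1 was at 62.4, 63.1, 53.5, 59.9 and 42.9 CPM in females 1 to 5, against 59.8, 59.5, 54.1, 58.4 and 46.2 CPM in males 1 to 5. Eif2ak3, the kinase PERK, was at 43.4, 48.9, 40.9, 41.6 and 30.6 CPM in females 1 to 5, against 48.00, 46.1, 38.4, 38.4 and 34.9 CPM in males 1 to 5. In both the libraries numbered 5 were the lowest of their sex, and Eif2ak3 was also higher in numbers 1 and 2 than in 3 and 4 in both sexes. Ddit3, the pro-apoptotic factor CHOP, was at 45.3, 51.2, 51.2, 49.1 and 34.9 CPM in females 1 to 5, against 48.5, 47.9, 43.05, 48.4 and 34.4 CPM in males 1 to 5. Chac1 was at 10.2, 15.9, 10.7, 12.9 and 6.42 CPM in females 1 to 5, against 11.5, 11.5, 10.2, 12.2 and 7.56 CPM in males 1 to 5. Number 5 was the lowest of each sex in both of these genes as well, with female 2 the highest library for Chac1.

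Asns was called but had another pattern, at 115, 119, 83.1, 92.5 and 83.9 CPM in females 1 to 5, against 102, 98.1, 79.2, 91.8 and 89.2 CPM in males 1 to 5. Numbers 1 and 2 were the highest of each sex and number 3 the lowest. Psat1 was at 193, 209.6, 145, 169 and 164 CPM in females 1 to 5, against 176, 158, 150.3, 166 and 168 CPM in males 1 to 5. Shmt2 was at 120.3, 135, 95.1, 108 and 106 CPM in females 1 to 5, against 107, 108, 90.6, 114 and 97.2 CPM in males 1 to 5. In neither was number 5 the lowest of its sex, and number 3 was lowest in both sexes. Phgdh, with its low share of unique reads, was at 119, 129.8, 113, 125 and 131 CPM in females 1 to 5, against 111, 124, 114, 126 and 133 CPM in males 1 to 5. Here number 5 was the highest library of each sex. Over the 35 members, the libraries numbered 5 were the lowest of their sex in both sexes for 16, against 7.99% of all tested genes. By group these were 6 of 16 chaperones, 3 of 3 ERAD genes and 2 of 4 in the group of sensors and Xbp1. They were also 5 of 7 stress factors and 0 of 5 biosynthetic enzymes. Number 5 was singled out after the values were seen, so these counts are a description.

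Summed over the 16 chaperone genes, the level was 6792 CPM in female 5 and 7514 to 8394 CPM in females 1 to 4, and 7170.4 CPM in male 5 and 7273 to 8431 CPM in males 1 to 4. Some markers of other cell types were highest in the same libraries. The 7 macrophage markers summed to 99.4 CPM in female 5, where females 1 to 4 had 39.9 to 66.8 CPM, and 71.2 CPM in male 5, where males 1 to 4 had 46.7 to 63.3 CPM. Of these, 6 of 7 were highest among females in female 5 and 3 of 7 among males in male 5, Cd68, Csf1r and Lyz2 in both. Lyz2 held most of the macrophage sum, at 64.2 CPM in female 5 and 48.6 CPM in male 5. The other lists that summed highest in number 5 of each sex, endothelial, epithelial, and cartilage and bone, were likewise led by single genes. The 5 endothelial markers summed to 151 CPM in female 5, where females 1 to 4 had 96.2 to 111 CPM, and 109 CPM in male 5, where males 1 to 4 had 82.3 to 95.7 CPM. Only Flt1 was highest in female 5, at 119.96 CPM, none was highest in male 5, and Tek in female 5 and Cdh5 in male 5 were the lowest of their sex. The 5 epithelial markers summed to 87.8 CPM in female 5, where females 1 to 4 had 61.1 to 82.7 CPM, and 113 CPM in male 5, where males 1 to 4 had 59.2 to 93.3 CPM. Krt19 made up most of this, at 74.7 CPM in female 5 and 103 CPM in male 5, while Epcam was the lowest of the females in female 5, at 0.105 CPM, and was at 0.0736 CPM in male 5. Of the 6 cartilage and bone markers 4 were highest among females in female 5 and 1, Col2a1, among males in male 5, where Sox9 was the lowest. The skeletal muscle markers summed highest in female 5 but not in male 5, which had 87.5 CPM against 68.0 to 104 CPM in males 1 to 4. Des gave nearly all of this sum, at 119.7 CPM in female 5 and 87.5 CPM in male 5. Myod1, Myog and Myf5 were at or near 0. The erythroid and liver markers went the other way in males, at 2.45 CPM in male 5, the lowest male, and were at 3.20 CPM in female 5. Of all marker genes listed, only Hba-a1 was at 0 in every library, and Ibsp, Myod1, Myog, Myf5, Hbb-bs and Afp were at 0 in some. The summed fibroblast markers of female 5 and male 5 lay inside the range of their sex, each the 2nd lowest. Of the 8 markers, 2 were lowest among females in female 5, Col3a1 and Fn1. Among males 2 were lowest in male 5, Pdgfrb and Vim, and 0 were highest in either library. The intron share of all reads was 27.1% in female 5 and 26.6% in male 5, inside the range of the other libraries, 22.5% to 28.6%. The part of these markers in the low chaperone levels was not tested.

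**Figure D4:**
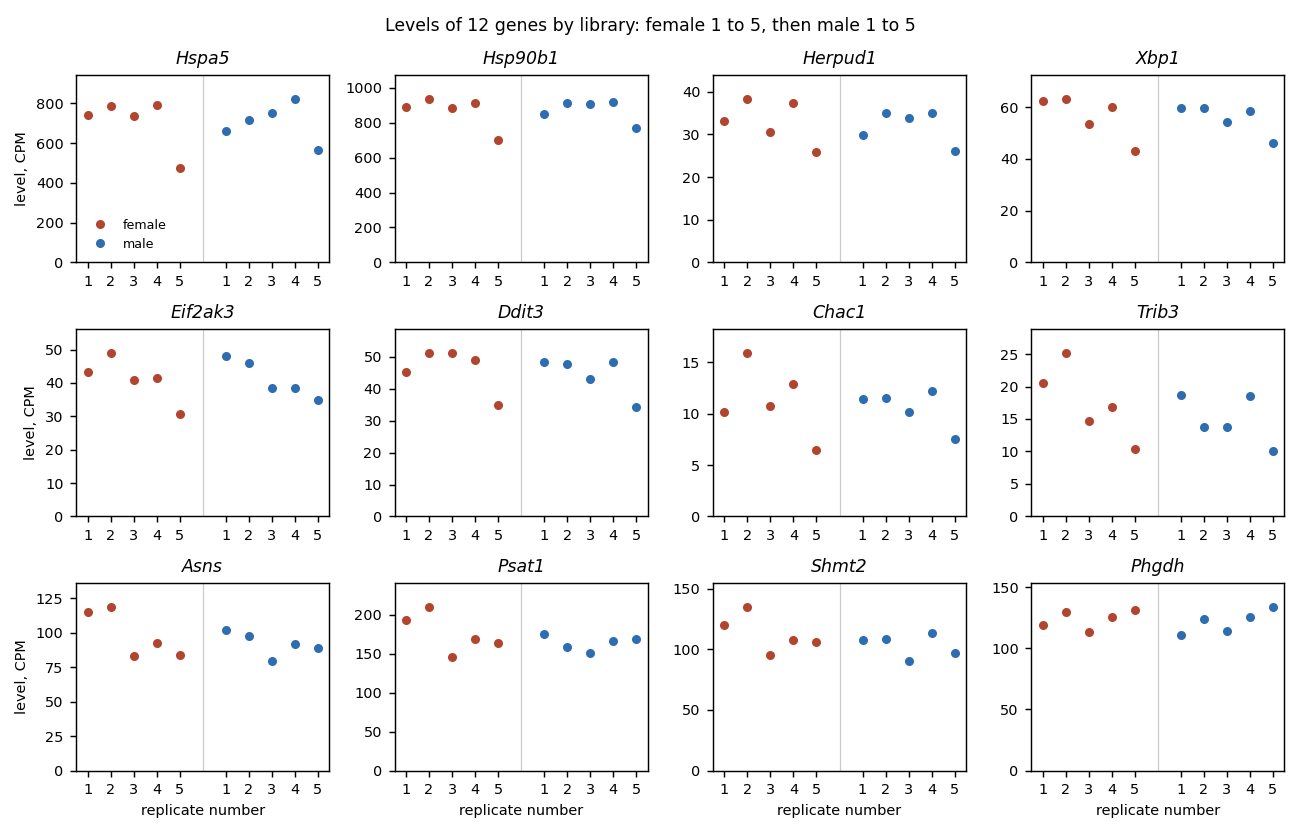
CPM of 12 members on axes that start at 0, with 1 point per library, females 1 to 5 left of males 1 to 5. Hspa5, Hsp90b1, Herpud1, Xbp1, Eif2ak3, Ddit3, Chac1 and Trib3 are lowest at number 5 in both sexes, whereas Asns, Psat1 and Shmt2 are lowest at number 3 and Phgdh is highest at number 5.

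Most chaperones moved together across libraries, with a positive r in 117 of 120 pairs. Over the 120 pairs within the chaperone group the median Pearson r of log2 CPM was 0.713, and 0.722 between chaperones and ERAD genes, against a median of 0.0095 over all pairs of the 8877 genes. Within the stress factors the median was 0.783 and within the biosynthetic enzymes 0.610. Between chaperones and stress factors it was 0.534, between chaperones and biosynthetic enzymes 0.257, and between stress factors and biosynthetic enzymes 0.539. Without both libraries numbered 5, the median within the chaperones was 0.673 and within the biosynthetic enzymes 0.815, while that between chaperones and stress factors was 0.300 and that within the stress factors 0.518. Pairs share their 10 libraries and are not independent, so no p is given for these medians.

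For 12 pairs chosen by role, r was tested by permutation over the 10 libraries and adjusted over the 12. Libraries of the same number tended to deviate together, more for some numbers than for others, so the 10 may not be fully independent. An exact permutation of the 5 numbers, whose smallest p is 0.00833, was therefore added after seeing the data. Hspa5 and Hsp90b1 had r = 0.980 and rho = 0.830 (adjusted permutation p = 0.00072 and 0.0136), and r = 0.826 without the 2 farthest libraries, which were female 5 and male 5. Hspa5 and Sdf2l1 had r = 0.822 and rho = 0.891 (adjusted permutation p = 0.00154 and 0.0136), and 0.851 without the same libraries. The lectins Calr and Canx had r = 0.920 and rho = 0.842 (adjusted permutation p = 0.00072 and 0.0136), and 0.848 without female 5 and male 4. These 3 relations held among the remaining libraries, and over the 5 numbers each had an adjusted exact p of 0.02.

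Other relations of Hspa5 rested on few libraries or were not called. Hspa5 and Ddit3 had r = 0.856 (adjusted permutation p = 0.0174) but rho = 0.503 (adjusted permutation p = 0.214). Without female 5 and male 5 r was 0.121, so the relation rests on those 2 libraries, and over the numbers the adjusted exact p was 0.13. Hspa5 and Asns had r = 0.316 and rho = 0.188 (adjusted permutation p = 0.385 and 0.66), with r = -0.0725 without the same 2. Hspa5 and Dnajb9 had r = 0.641 and rho = 0.0545 (adjusted permutation p = 0.0938 and 0.892), and -0.125 without them. Xbp1 and Atf4, in contrast, had r = 0.736 and rho = 0.782 (adjusted permutation p = 0.0221 and 0.0241), and r = 0.864 without these 2 libraries, with an adjusted exact p of 0.0333 over the numbers. Across the 5 differences of female minus male within a number, however, r was -0.234 for Xbp1 with Atf4 and -0.158 for Hspa5 with Ddit3. It was positive for the other pairs tested.

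In the ATF4 branch, Asns and Psat1 had r = 0.903 and rho = 0.855 (adjusted permutation p = 0.00154 and 0.0136), and 0.696 without females 1 and 2. Asns and Trib3 had r = 0.758 and rho = 0.709 (adjusted permutation p = 0.0189 and 0.0455), but 0.476 without those females (exact p = 0.237). Over the 5 numbers its adjusted exact p was 0.0571, above the threshold of 0.05. Ddit3 and Chac1 had r = 0.910 and rho = 0.770 (adjusted permutation p = 0.00154 and 0.0243), and 0.659 without female 5 and male 5 (exact p = 0.079). None of these 3 relations passed without its 2 farthest libraries, so each rests in part on those, with an exact p of 0.0574 for Asns with Psat1. Without number 5, r was 0.938 for Asns with Psat1 and 0.830 for Asns with Trib3 (adjusted exact p = 0.0149 and 0.0301). Asns with Psat1 and Ddit3 with Chac1 each had an adjusted exact p of 0.02 over the numbers. Phgdh and Psat1, successive enzymes of serine synthesis, had r = 0.348 and rho = 0.212 (adjusted permutation p = 0.36 and 0.66), and 0.289 without female 3 and male 1. Serpinh1 and its client gene Col1a1 had r = 0.674 and rho = 0.442 (adjusted permutation p = 0.0471 and 0.275), but 0.353 without female 2 and male 4. Over the numbers its adjusted exact p was 0.0875, and without number 5 its r was 0.799.

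Single members differed in how they correlated with Hspa5 and with Asns, which are single genes and need not stand for their whole branch. Xbp1 had an r of 0.859 with Hspa5 and 0.686 with Asns over 10 libraries, and 0.0682 and 0.939 without number 5. Eif2ak3 had 0.670 with Hspa5 and 0.706 with Asns over 10 libraries, and -0.498 and 0.768 without number 5. Both moved with Hspa5 over 10 libraries but not without number 5, and with Asns also among the other 8. Creld2 had 0.749 with Hspa5 and -0.273 with Asns over 10 libraries, and 0.817 and -0.612 without number 5, and Manf had 0.735 with Hspa5 and -0.317 with Asns over 10 libraries, and 0.674 and -0.695 without number 5. These chaperone-group members kept a positive r with Hspa5 and a negative one with Asns. Dnajb11 had 0.686 with Hspa5 and 0.0127 with Asns over 10 libraries, and 0.956 and -0.207 without number 5. P4hb, in contrast, had 0.153 with Hspa5 and 0.696 with Asns over 10 libraries, and 0.329 and 0.749 without number 5. Atf6 and Ern1 were negatively correlated with Hspa5, at -0.513 and -0.296 over 10 libraries. These are descriptions over the same libraries.

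**Figure D5:**
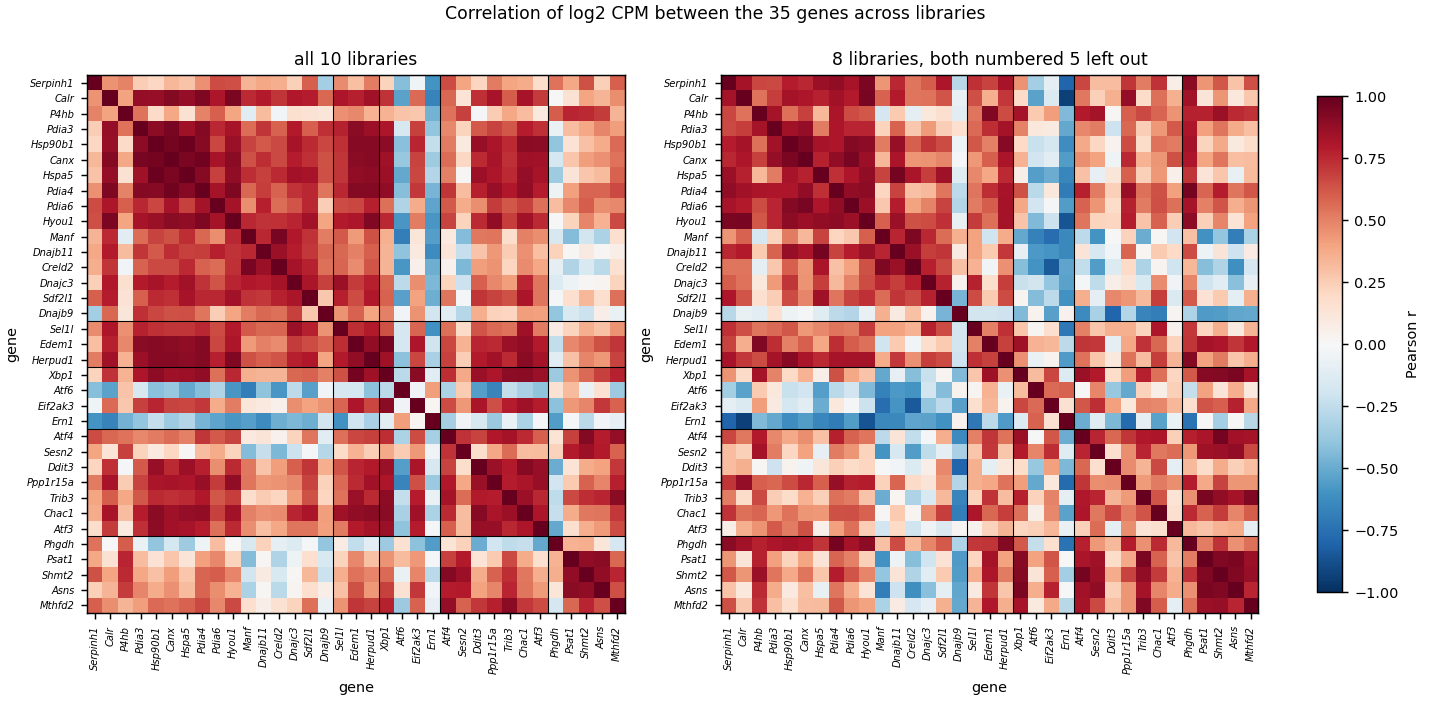
Pearson r of log2 CPM between all 35 members, over 10 libraries on the left and over the 8 libraries left without number 5 on the right, with lines between the groups by role. Most of the chaperone block stays red in both panels. On the right Dnajb9 is negative with several chaperones, such as Sdf2l1 (-0.466), and P4hb with Creld2 (-0.101) and Manf (-0.171). The block between chaperones and stress factors is paler on the right and the biosynthetic block is deeper.

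Outside the 35, the genes most like Hspa5 across the 10 libraries, among those with a mean of at least 10 CPM, were the pseudokinase gene Trib2 (r = 0.953), the autophagy gene Atg12 (0.947), the ER lectin Mlec (0.931), the proton pump subunit Atp6v1c1 (0.929) and the COPII coat gene Sec24c (0.924). Without number 5 these values were between 0.463 and 0.771. Those most like Asns were squalene epoxidase, Sqle (r = 0.981), Cyb5r1 (0.971), the citrate carrier Slc25a1 (0.968), HMG-CoA synthase, Hmgcs1 (0.962), and lanosterol demethylase, Cyp51 (0.962). They were between 0.969 and 0.983 without number 5. Sqle was at 191, 203, 132, 152 and 130.5 CPM in females 1 to 5, against 181, 169.8, 121, 146 and 136 CPM in males 1 to 5. As for Asns, females 1 and 2 and males 1 and 2 were the highest of their sex.

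Other genes of the pathway came from 7 lists, none of whose tested genes was called between the sexes. This held for 20 further ER folding genes, 13 ERAD genes, 13 collagen-modifying genes, 7 further sensors and factors, 11 genes of eIF2 control, 28 further ATF4 targets and 19 cytosolic tRNA synthetases. The median fold change was 0.07 over the ATF4 targets, with 23 of 28 positive, and 0.05 over the synthetases, with 18 of 19 positive. It lay between -0.03 and 0.01 for the other 5 lists. The number term called 8 of 28 ATF4 targets, 3 of 19 synthetases and 1 of 13 collagen-modifying genes, against 2.45% of all genes (edgeR). It called 0 in the other 4 lists. On simulated data this term made more false calls than its threshold allows. Calls of limma-voom are not given for these lists, so single calls are uncertain. The ATF4 targets called were the mTORC1 inhibitor Ddit4 (adjusted p = 0.0102), the amino acid transporters Slc7a5 (adjusted p = 0.0458) and Slc1a5 (adjusted p = 0.0219), the enzymes Gpt2 (adjusted p = 0.0102), Pck2 (adjusted p = 0.0256), Aldh18a1 (adjusted p = 0.00961) and Aldh1l2 (adjusted p = 0.0137), and Vegfa (adjusted p = 0.0102), an angiogenic growth factor. The synthetases were Aars (adjusted p = 0.0271), Tars (adjusted p = 0.0346) and Rars (adjusted p = 0.0365), and the collagen gene was the lysyl hydroxylase Plod2 (adjusted p = 0.0246). Aldh18a1, which makes the precursor of proline, was at 146, 164, 112, 135 and 100.02 CPM in females 1 to 5, against 148, 131, 112, 134 and 101 CPM in males 1 to 5. Plod2 was at 114, 87.9, 98.6, 113 and 78.1 CPM in females 1 to 5, against 104, 101, 100.4, 107 and 78.5 CPM in males 1 to 5.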

How the data were processed

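RNA was measured in 5 female and 5 male libraries of mouse embryonic fibroblasts, grouped by the sex and number in the sample titles. The authors deposited 1 table of whole-number read counts for 52550 genes, unique and total, over genes, exons and introns, with exon length, start and end, per the file headers. Reads were placed on mm10, as the submitters' processing notes state. The aligner is not given in the sources used here, nor are the counting rules. Another 100 per-library columns were left aside. Exon lengths deposited by the authors served for RPKM.

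Unique gene reads were filtered with filterByExpr (minimum count 10), scaled by TMM and tested on both sides with the robust quasi-likelihood fit of edgeR 4.0.16 in R 4.3.3, with sex as the only term. P-values were adjusted by Benjamini-Hochberg over 16602 genes and called under 0.05. Alternatives were DESeq2 1.42.0, limma-voom (limma 3.58.1), other scalings and filters, other read classes, a replicate block and each library left out. Correlations used log2 CPM with a prior count of 2, with permutation p from 100000 resamples over 10 libraries. The fits were tested on simulated data, where the term for replicate number made more false calls than its threshold allows. The calls of limma-voom are therefore given beside it for all tested genes and the members, but not for the further lists. Chi-square per degree of freedom between libraries of a sex was 10.3 to 45.0 over genes, so no library appeared to be a copy of another.

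Deviations from the sex means correlated positively over genes for all 5 numbers, at 0.122 to 0.521, but not always most strongly within a number. Female 1 was at 0.325 with male 2 against 0.202 with male 1, and female 4 at 0.214 with male 3 against 0.122 with male 4. The pairing is taken from the numbers in the titles, since the labels do not say what a number marks. These values bear it out only in part. The number was therefore also tested as a term. The members and lists were chosen with earlier results of these data known. Named are all 35 members, the genes of each further list called in either test and up to 3 with the smallest p (only called ones and single examples are printed), the 5 genes most correlated with Hspa5 and with Asns, and sex and cell type markers. Carboxy-terminal residues of the proteins were planned but are not analysed here.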

Additional observations from a re-analysis of the deposited data

Results flagged for a closer look

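In 3 of 70 groups of 5 libraries, 1 group per member and sex, the lowest or highest library stood apart from the other 4 by Dixon's criterion, and chance gives about 3.5. Hspa5 was at 474 CPM in female 5, where the other females were at 738 to 793 CPM. Hsp90b1 was at 702 CPM in female 5, where the other females were at 885 to 937 CPM. Serpinh1 was at 1492 CPM in male 4, where the other males were at 1207 to 1287 CPM. Of 7 macrophage markers 6 were highest among females in female 5 and 3 among males in male 5. Of 5 endothelial markers 1 was highest and 1 lowest among females in female 5. The part of such markers in the Hspa5 and Hsp90b1 values of female 5 was not tested.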

How the results depend on the processing

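No member was called between the sexes under any alternative. Genes called by sex were 15, but 30 with no filter, 70 by DESeq2 and 43 with the replicate block, and 12 to 36 when 1 library was left out. Of the 35 fold changes, none of which passed the test, the sign turned for Hspa5 by limma-voom (-0.0069) and with the replicate block (-0.0064), for Hyou1 with upper quartile factors (-0.0011) and for Eif2ak3 with no filter (0.0008). With unique intron reads, which are few for spliced genes, 15 of 33 turned: Hspa5 (-0.0791), Hsp90b1 (0.0182), Canx (0.0812), Pdia4 (-0.0978), Dnajb9 (0.1409), Dnajb11 (0.1994), Manf (0.1602), Herpud1 (-0.0326), Edem1 (0.0787), Sel1l (0.0018), Atf6 (0.009), Eif2ak3 (0.0365), Atf4 (-0.2514), Atf3 (-0.1569) and Sesn2 (-0.0308). Leaving out 1 library turned the sign of 22 members, whose ranges were Hspa5 -0.0621 to 0.122, Hsp90b1 -0.0542 to 0.0558, Calr -0.0637 to 0.0273, Canx -0.0372 to 0.0454, Pdia3 -0.0834 to 0.0043, Pdia4 -0.0274 to 0.0623, Pdia6 -0.0084 to 0.0758, P4hb -0.0706 to 0.0126, Dnajb11 -0.0565 to 0.0201, Dnajc3 -0.0406 to 0.0008, Creld2 -0.0966 to 0.0122, Herpud1 -0.0184 to 0.1238, Edem1 -0.0543 to 0.0425, Hyou1 -0.0355 to 0.055, Xbp1 -0.0405 to 0.1044, Eif2ak3 -0.0773 to 0.0873, Atf3 -0.0954 to 0.1602, Ddit3 -0.0197 to 0.1484, Chac1 -0.075 to 0.2341, Sesn2 -0.0242 to 0.0848, Ppp1r15a -0.0037 to 0.1277 and Phgdh -0.0036 to 0.0605.

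The number term, added after seeing the data, called 407 genes (2.45% of those tested in that fit) and 7 members. With no filter it called 2233 genes (6.66%) and 18 members, and with total reads 200 genes (1.12%) and 2 members. With exon reads it called 915 genes (6.72%) and 15 members, and with intron reads 261 genes (1.83%) and 0 members. By limma-voom 245 genes (1.48%) and 2 members passed. Leaving out 1 library or 1 number gave 54 to 819 genes (0.326% to 4.85%) and 0 to 10 members. The cause of these shifts was not tested.

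Without the 2 farthest libraries r was -0.125 for Hspa5 with Dnajb9, 0.696 for Asns with Psat1, 0.476 for Asns with Trib3, 0.659 for Ddit3 with Chac1, -0.0725 for Hspa5 with Asns, 0.121 for Hspa5 with Ddit3 and 0.353 for Serpinh1 with Col1a1, and for the Hspa5 and Ddit3 pairs the same values hold without number 5. Serpinh1 with Col1a1 also missed the threshold with relative log expression factors (0.661), with sexes centred (0.689) and with exon reads (0.481). It did so as well when numbers were permuted (r = 0.674), as did Asns with Trib3 (0.758) and Hspa5 with Ddit3 (0.856). Leaving out 1 library moved r over -0.2735 to 0.8194 for Hspa5 with Dnajb9, 0.6362 to 0.8086 for Asns with Trib3, 0.7706 to 0.8948 for Hspa5 with Ddit3, 0.6373 to 0.8782 for Xbp1 with Atf4 and 0.5773 to 0.804 for Serpinh1 with Col1a1. In the medians that follow, the sensors include Xbp1. Without number 5 the median r was 0.605 for chaperones with ERAD, -0.306 for chaperones with sensors and 0.300 for chaperones with stress factors. It was 0.684 for ERAD with ERAD, 0.098 for ERAD with sensors and 0.358 for ERAD with stress factors. It was 0.440 for sensors with sensors, 0.369 for sensors with enzymes, 0.518 for stress factors with stress factors and 0.815 for enzymes with enzymes. With 1 library left out it ran over 0.6037 to 0.826 for chaperones with ERAD, -0.1854 to 0.2049 for chaperones with sensors, 0.1066 to 0.3258 for chaperones with enzymes, 0.6945 to 0.9059 for ERAD with ERAD, 0.1125 to 0.3291 for ERAD with sensors, 0.2365 to 0.496 for ERAD with enzymes, -0.1762 to 0.1332 for sensors with sensors, 0.1947 to 0.3934 for sensors with stress factors, 0.0139 to 0.2878 for sensors with enzymes, 0.3469 to 0.6292 for stress factors with enzymes and 0.4949 to 0.8146 for enzymes with enzymes. With total exon reads, levels of 26 of 35 members moved beyond their SD, by a median factor of 0.859. The lowest factor was also 0.859, so most of these shifts were a scaling shared between genes, and the highest was 2.25, for Phgdh. No group has more than 5 libraries, which limits all comparisons.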
